A study of Homo sapiens with 8 samples.

Results

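RBM12, DCAF5 and GLRX2 are 3 of the 19475 rows in an expression table of HCT116 cells, a human colorectal carcinoma line, treated with PBS (Control) or with Fusobacterium nucleatum (FUSO). They were chosen by gene symbol because their mRNA level was sharply lower in FUSO than in Control libraries, so the fall itself is described here without a test. All cells were of one line, grown in Maccoy 5A medium (the labels' spelling) with fetal bovine serum, and the treatment lasted 2 h. Each condition had 2 input libraries of poly(A) RNA fragments and 2 libraries pulled down with an antibody against N6-methyladenosine (m6A), or 8 libraries in all. Expression was given as FPKM (fragments scaled to transcript length and to the mapped total) in the 4 input libraries. Each of the 4 peak lists, Control 1, Control 2, FUSO 1 and FUSO 2, came from a pull-down library set against the input of the same replicate, and 23 of their 70751 peaks carried the name of one of the 3 genes.

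m6A is a methyl mark that the METTL3 and METTL14 methyltransferase complex places on adenosines of mRNA, most often in a consensus with the core letters GGAC. It is found mainly in long internal exons and near stop codons, and reader proteins that bind it affect how long an mRNA persists. RBM12 encodes an RNA-binding protein with several RNA recognition motifs. DCAF5 encodes a WD40-repeat protein that serves as a substrate receptor of the ubiquitin ligase built on CUL4 and DDB1. GLRX2 encodes a glutaredoxin, an enzyme that uses glutathione to reduce disulfides, with forms in mitochondria and in the nucleus.

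The bases called as peak in all 4 lists held 12 GGAC motifs in RBM12 and 9 in DCAF5, read on the transcript strand only. The last 5 motifs of RBM12 stood close together in its coding sequence, at 15, 15, 30 and 30 nt from one to the next. All 12 lie in the strongest RBM12 peak, and these 5 are shown for their close spacing. Positions refer to GRCh37 (hg19), and capitals mark GGAC.
RBM12 at transcript position 2216, chr20:34241267-34241287, minus strand: ccaatgcgGGACtgcccggtg
RBM12 at transcript position 2231, chr20:34241252-34241272, minus strand: ccggtgtgGGACtgcccagtg
RBM12 at transcript position 2246, chr20:34241237-34241257, minus strand: ccagtgcaGGACttcccggtg
RBM12 at transcript position 2276, chr20:34241207-34241227, minus strand: ccagcacaGGACtgcctggtt
RBM12 at transcript position 2306, chr20:34241177-34241197, minus strand: ccagtgcaGGACtgcctggtg

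In DCAF5, 8 of the 9 motifs lay in the coding part of the last exon. The 4 of them followed by A are shown, since all 4 read GGACact.
DCAF5 at transcript position 2333, chr14:69521201-69521221, minus strand: tgcagcaaGGACacttttaaa
DCAF5 at transcript position 2432, chr14:69521102-69521122, minus strand: acctctcaGGACactggcaat
DCAF5 at transcript position 2730, chr14:69520804-69520824, minus strand: cttccccaGGACactcagaca
DCAF5 at transcript position 2770, chr14:69520764-69520784, minus strand: cctgacagGGACactcctaca

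GLRX2 had a single motif in the 91 nt that its 2 peaks shared, in the coding part of exon 1.
GLRX2 at transcript position 63, chr1:193074472-193074492, minus strand: gctggcggGGACgcggctggt

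GGAC is common in stretches this long. A window of 2454 nt, the length of the shared RBM12 bases, placed at the centre of each other transcript at least as long, held GGAC in 99.5% of 6912 transcripts, with a median of 8 motifs against 12. For the 1441 nt shared in the coding region of DCAF5 the values were 97.0% of 9244 transcripts and a median of 5 motifs against 8. For the 91 nt of GLRX2, 29.8% of 10670 windows held GGAC.

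The first comparison gives the mRNA level. RBM12 (chromosome 20, 34236847 to 34252878, minus strand) measured 27.0 and 30.9 FPKM in Control against 6.73 and 7.79 FPKM in FUSO libraries. The means were 29.0 ± 2.75 and 7.26 ± 0.75 FPKM (SD, n = 2), which left 25.1% of the Control level. In Control the level of RBM12 was at the 78.3rd percentile of the 11088 tested genes, those with a mean of at least 1 FPKM.

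DCAF5 (chromosome 14, 69517598 to 69619867, minus strand) measured 6.24 and 6.35 FPKM in Control against 1.02 and 1.11 FPKM in FUSO libraries. The mean was 6.29 ± 0.0754 FPKM in Control and 1.06 ± 0.0623 FPKM in FUSO (SD, n = 2), or 16.9% of the Control level. It thus came close to the filter of 1 FPKM after treatment. On the FPKM scale this was a 5.93-fold difference, and the largest of the 3 genes, against 3.99-fold for RBM12 and 2.01-fold for GLRX2.

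GLRX2 (chromosome 1, 193059996 to 193075244, minus strand) measured 12.4 and 10.3 FPKM in Control against 5.54 and 5.77 FPKM in FUSO libraries. The means were 11.3 ± 1.53 and 5.66 ± 0.162 FPKM (SD, n = 2), or 49.9% of the Control level. The Control libraries of GLRX2 differed from each other more than those of DCAF5. In bulk RNA, less RNA per cell and fewer cells that make the RNA cannot be told apart.

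Both FUSO values lay below both Control values in 3 of the 3 genes, as they did for 21.1% of all tested genes. On the log2(FPKM + 1) scale the changes were -1.86 for RBM12, -1.82 for DCAF5 and -0.89 for GLRX2, which were ranks 1, 2 and 15 from the lowest of 11088 genes. With a pseudocount of 0.1 in place of 1 the ranks were 6, 2 and 23. In a limma fit over all of these genes 15 (0.135%) were lower at an adjusted p under 0.05. The 3 genes were among the 15 because they had been chosen for this fall, so their count carries no evidence. The number 15 depended on single libraries: it was 36 without Control 1, 99 without Control 2, 8 without FUSO 1 and 3 without FUSO 2. PHC3, a Polycomb gene, lay between DCAF5 and GLRX2 among the 15, with a change of -0.98. The next after GLRX2 were ACVR1B, an activin receptor, at -0.86 and BTBD10 at -0.78. CXCL8, a neutrophil-attracting chemokine, had the largest rise, 4.90 on the same scale (limma adjusted p 4.84e-05).

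Genes with the most similar profile were sought by Euclidean distance over the 4 input libraries, after the Control mean of each gene had been subtracted on the log2(FPKM + 1) scale. RBM12 and DCAF5 were nearest to each other, at 0.155. Both had been chosen for the largest falls on this scale, so their closeness is a description, and it depended on the pseudocount. With 0.1, a setting chosen after seeing the data, they were still nearest to each other but at 0.693, with PHC3 at 0.986 from RBM12. With 1 the second nearest gene was KLHL23 at 1.23 from RBM12 and RLIM at 1.19 from DCAF5. KLHL23 and RLIM had spread between the Control libraries, with 4.31 and 8.94 FPKM for KLHL23 and 4.57 and 1.23 FPKM for RLIM. RLIM encodes a ubiquitin ligase. PHC3 came next for both, at 1.27 from RBM12 and 1.2 from DCAF5. For GLRX2 the 3 nearest genes were PHC3 at 0.168, OR51I1, an olfactory receptor gene, at 0.203 and ACVR1B at 0.206.

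The loci were examined next, because genes that overlap can share fragments. RBM12 lies wholly within the span of CPNE1, which encodes a calcium-dependent phospholipid-binding copine, on the same strand. Their canonical transcripts start at the same base, 34252822, and share exon 1 of 141 nt, which is 2.12% of the 6646 nt of RBM12. Counting every CPNE1 exon of the annotation used here, the overlap was 519 nt or 7.81%. Peaks of both names shared more, 747 to 777 nt, as described with the peaks. The 30 bases before the start at 34252822 are thus common to both genes and are shown for that reason, chr20:34252823-34252852 on the minus strand.
RBM12 and CPNE1: aacgcggagccgctgagcgggccgacggcc

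CPNE1 measured 51.0 and 50.6 FPKM in Control against 52.8 and 54.7 FPKM in FUSO libraries. Its log2 fold change was 0.08 (95% confidence interval -0.06 to 0.22, limma adjusted p 0.555). The FPKM of RBM12 was 34.6% and 38.0% of the sum of both genes in Control libraries and 11.3% and 12.5% in FUSO libraries. The sum itself was 78.1 and 81.5 FPKM in Control and 59.5 and 62.5 FPKM in FUSO libraries. FPKM is scaled to transcript length, 6646 nt in canonical RBM12 and 1952 nt in canonical CPNE1, so this sum is not a count of fragments. Whether fragments were assigned differently between these genes in the 2 conditions was not tested. A further protein-coding annotation on the same strand, ENSG00000272897 (34220262 to 34262466), also spans RBM12 and was not in the expression table. How the counting divided fragments of shared exons between overlapping genes is not given in the sources used here, and the level of RBM12 is uncertain to that extent.

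Of 31 annotated genes that overlapped one of the 3 genes or lay within 100 kb, 12 were in the expression table and 11 were tested. By the limma adjusted p, 0 of the 11 were called, against 0.803% of all tested genes, and 1 had an unadjusted p under 0.05, against 13.5% of all tested genes. The groups did not overlap in 5 of the 11, against 47.2% of all tested genes. The gene with the unadjusted p under 0.05 was ACTN1, which encodes an actin crosslinker, near DCAF5 (log2 fold change 0.19, limma adjusted p 0.333). Near RBM12, NFS1, a cysteine desulfurase gene 3096 bp away, had the lowest change of the 11, -0.31 (95% confidence interval -0.70 to 0.08, limma adjusted p 0.439). It measured 13.5 and 14.1 FPKM in Control against 9.13 and 13.0 FPKM in FUSO libraries. ROMO1, RBM39, ERGIC3 and SPAG4, also near RBM12, had changes of 0.10, -0.06, 0.08 and -0.08. EXD2, the other tested neighbour of DCAF5, measured 5.02 and 4.81 FPKM in Control against 4.76 and 5.06 FPKM in FUSO libraries. The 3′ end of GLRX2 overlaps TROVE2, also named RO60, on the opposite strand, which measured 7.27 and 7.60 FPKM in Control against 7.66 and 7.11 FPKM in FUSO libraries. CDC73 and UCHL5, on either side of GLRX2, had changes of 0.22 and -0.10. B3GALT2 stayed at or below 0.0398 FPKM and was not tested.

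Genes of the same families and complexes were then compared. All 30 genes of the CUL4 ligase list, which held the scaffold, adaptor and RING subunits CUL4A, CUL4B, DDB1 and RBX1 and other DCAF receptors, were tested, and 0 were called (limma adjusted p, lowest 0.268). Over all tested genes 0.803% were called, so 0 of 30 is near the background. An unadjusted p under 0.05 was found for 3 of the 30, against 13.5% of all tested genes, and the median log2 fold change was -0.01 against 0.014. DDB1, the adaptor that DCAF proteins bind, measured 71.3 and 80.5 FPKM in Control against 77.9 and 75.3 FPKM in FUSO libraries. The extremes by size were WDTC1, a DCAF-type receptor gene, at 0.30 (limma adjusted p 0.268) and DCAF6 at 0.22 (limma adjusted p 0.353). DTL, equal to DCAF6 in size after rounding, was at -0.22 (limma adjusted p 0.346). The changes in the list ran from -0.22 to 0.30. That of DCAF5 lay outside this range, which follows from its choice for a sharp fall and carries no evidence.

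Among 25 glutaredoxin, thioredoxin and glutathione genes 23 were tested, and 0 were called (limma adjusted p, lowest 0.165), against 0.803% of all tested genes. The median log2 fold change was 0.02, and 2 of the 23 had an unadjusted p under 0.05, against 13.5% of all tested genes. GLRX, the cytosolic glutaredoxin gene, measured 22.9 and 23.9 FPKM in Control against 28.7 and 30.5 FPKM in FUSO libraries. Its log2 fold change was 0.33 (limma adjusted p 0.165), of opposite sign to that of GLRX2. GLRX5, a mitochondrial glutaredoxin gene that serves iron-sulfur cluster assembly, measured 61.2 and 47.0 FPKM in Control against 54.2 and 53.1 FPKM in FUSO libraries. TXNRD3 and GSR, the glutathione reductase gene, followed with changes of the same size, -0.20 (limma adjusted p 0.516) and 0.20 (limma adjusted p 0.316). GSR measured 15.1 and 15.3 FPKM in Control against 17.3 and 17.9 FPKM in FUSO libraries, without overlap of the groups. TXNIP and NNT were listed at or near 0 in all 4 libraries, and whether a 0 in this table means absence of the RNA was not tested.

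The RBM12 list held its paralogue RBM12B and RNA-binding proteins with related recognition motifs. All 9 genes were tested and 0 were called (limma adjusted p, lowest 0.268), with 2 at an unadjusted p under 0.05 and a median log2 fold change of -0.03. With 0.803% called and 13.5% at that unadjusted p over all tested genes, a count of 0 in 9 genes is near the background. RBM12B measured 8.46 and 8.99 FPKM in Control against 9.73 and 9.26 FPKM in FUSO libraries, a log2 fold change of 0.11 (limma adjusted p 0.552). The largest changes in this list were those of GRSF1, 0.27 (limma adjusted p 0.481), and ESRP2, an epithelial splicing regulator gene, -0.26 (limma adjusted p 0.268).

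m6A peaks were a readout that had no part in the choice of the genes. RBM12 and DCAF5 had long peaks in every list, and GLRX2 had a short one in a single list of each condition. RBM12 peaks covered 2663 and 2785 nt in the Control lists and 2605 and 2694 nt in the FUSO lists. The means were 2724 ± 86.3 and 2649.5 ± 62.9 nt (SD, n = 2), a difference of -74.5 nt, and the groups overlapped (two-sided exact permutation p 0.667). The overlap depended on weak peaks: with peaks at a p-value of at most 1e-05, RBM12 had 2663 and 2724 nt in Control against 2484 and 2514 nt in FUSO lists. Both FUSO lists then lay below both Control lists, as for 17.7% of 8937 gene names, with a two-sided exact permutation p of 0.333, the smallest possible here. The FUSO mean was 97.3% of the Control mean, against a median of 100% (quartiles 87.6% to 112%) for the 8493 genes with a peak in all 4 lists.

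DCAF5 peaks covered 2221 and 2131 nt in Control and 2072 nt in both FUSO lists. The means were 2176 ± 63.6 and 2072 ± 0 nt (SD, n = 2), a difference of -104 nt, with a two-sided exact permutation p of 0.333, the smallest that 2 lists against 2 allow. Both FUSO lists lay below both Control lists, which held for 17.8% of the 11155 gene names with a peak. With peaks at a p-value of at most 1e-05 the DCAF5 groups overlapped, at 2221 and 2070 nt in Control against 1831 and 2072 nt in FUSO lists. The FUSO mean was 95.2% of the Control mean, inside the quartiles given for all genes. The mRNA level left after treatment was 25.1% for RBM12 and 16.9% for DCAF5. Covered length comes from pull-down against input and is not a measure of the same kind as FPKM. How much m6A each mRNA carried was not tested.

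The strongest RBM12 peak had the p-values 1e-155 and 9e-306 in Control and 1e-268 and 1e-207 in FUSO lists. Since p-values grow stronger with depth, ranks within a list were used to compare lists. This peak was 507th of 17198 and 171st of 18149 in Control and 228th of 18365 and 256th of 17039 in FUSO lists, or within the first 2.95%, 0.942%, 1.24% and 1.5%. The FUSO ranks lay between the Control ranks.

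The strongest DCAF5 peak reached a p-value of 6.3e-72 in Control 1 and 5e-90 in Control 2, against 4e-98 and 1.3e-62 in the FUSO lists. It stood within the first 8.73% and 6.94% in Control and the first 6.15% and 9.14% in FUSO lists, and here the Control ranks lay between the FUSO ranks. The ranks thus overlapped between groups in both genes. Overlap was the commoner outcome, as ranks did not overlap in 39.5% of the 8493 genes with a peak in all lists. The mean rank shifted by -0.573 percentage points for RBM12 and by -0.193 for DCAF5, where negative means stronger after treatment. Over all 8493 genes the median shift was -0.125 points, with quartiles from -3.70 to 3.12.

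**Figure D1:**
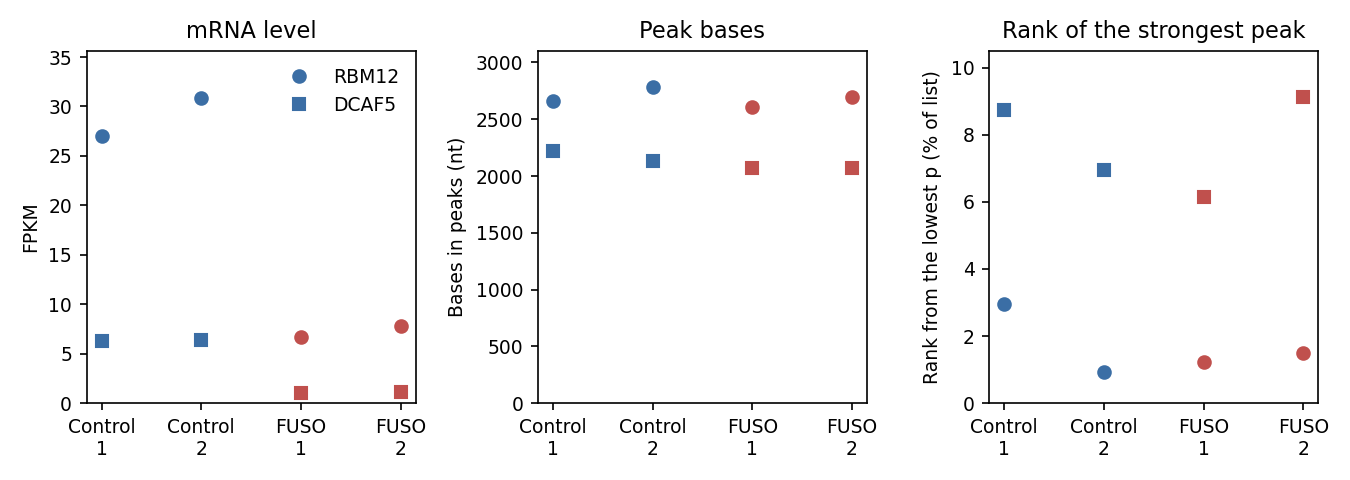
FPKM, bases covered by peaks (nt) and rank of the strongest peak from the lowest p (percent of the list) for RBM12 (circles) and DCAF5 (squares) in each Control (blue) and FUSO (red) library; all axes start at 0. FPKM separates the groups, while the ranks of both genes overlap between groups.

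Genes of a similar mRNA level gave a second view. Among genes within 2-fold of the FPKM of DCAF5 in the same library, 5.39% and 3.97% had a stronger peak than DCAF5 in Control, and 0.240% and 0.319% in FUSO lists. For RBM12 these shares were 7.17% and 1.81% in Control and 0.0462% and 0.0923% in FUSO lists. These genes were selected by FPKM, the measure that had chosen RBM12 and DCAF5, so the shares are a description. In FUSO 1, for example, 60.3% of the 2086 genes at a level like that of DCAF5 had any peak, with a median of 151 nt against the 2072 nt of DCAF5.

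By position, the main RBM12 peak spanned 3 exon blocks (union from 34240826 to 34252848) and covered exons 1 and 2, which are 5′UTR, and the first part of exon 3 with most of the coding sequence. Of its 2693 nt, 2454 nt (91.1%) were called in every list. Its end towards the stop codon varied. The strongest peak held 2419 and 2270 nt of coding sequence in the Control lists and 2210 and 2270 nt in the FUSO lists. Control 2 and FUSO 2 thus had the same value. In Control 2 a separate weak peak of 61 nt (peak p-value 0.0059) lay beyond this end. A second region in the 3′UTR (34240078 to 34240287) had a peak in Control 2, FUSO 1 and FUSO 2 and none in Control 1. Its p-values were 7.1e-06 in Control 2, 0.00039 in FUSO 1 and 4.5e-05 in FUSO 2. Merged by any overlap, 0 of the 2 RBM12 regions were private to one condition, but this depended on the setting. With peaks at a p-value of at most 1e-05 the 3′UTR region was left in Control 2 alone, and with a reciprocal overlap of 50% 3 of 5 regions were in one condition only. Without Control 1 this held for 1 of 3 regions and without Control 2 for 1 of 2.

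A peak named CPNE1 overlapped the RBM12 peaks in every list. It covered 808 to 838 nt, of which 747 to 777 nt lay within RBM12 peaks, or 27.7% to 29.8% of the RBM12 peak bases. Its p-values were 3.2e-81 and 1e-119 in Control and 1e-146 and 1e-127 in FUSO lists. The other 1828 to 2008 nt of the RBM12 peaks were covered by no CPNE1 peak. The 747 to 777 nt exceed the 519 nt of canonical RBM12 bases that lie in any CPNE1 exon of the annotation used here. The exons of that annotation thus do not account for all bases shared by these peaks. Whether the annotation behind the peak lists and FPKM values gives CPNE1 more of the RBM12 bases was not tested. The part of CPNE1 fragments in the RBM12 peaks was not tested either.

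Merged by any overlap, DCAF5 had 2 regions, both present in all 4 lists. With a reciprocal overlap of 50% it had 4 regions, with 2 in every list and 1 in one condition only. The larger of the 2 regions merged by any overlap lay in exon 9, the last exon, from 69520095 to 69522133. It took in 1557 nt of coding sequence and 482 nt of 3′UTR across the stop codon. Of its 2039 nt, 1441 nt (70.7%) were called in every list. In Control 1, FUSO 1 and FUSO 2 the 5′ end of this region was split off as a separate peak of 241, 241 and 271 nt, whereas in Control 2 it was joined to the main peak. The smaller region lay in the 3′UTR (69518686 to 69519136, 451 nt) where the peaks reached p-values of 2e-21 and 2.7e-07 under Control against 5e-11 and 1e-19 under FUSO, so that the Control values enclosed the FUSO values.

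GLRX2 had 1 region, called in Control 1 (p 0.00017) and FUSO 1 (p 0.0006) and in neither list of replicate 2. Each peak was 151 nt long and they shared 91 nt. The Control 1 peak joined exon 1 to exon 2, with all of its bases in the coding sequence. The FUSO 1 peak lay in exon 1 and reached 32 nt of 5′UTR. Both were weak, at 74.5% and 83.6% of their lists. Most genes of a similar level had more peak bases, with medians of 565 nt in Control 1 and 599 nt in FUSO 1. A list without a peak shows only that none was called.

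**Figure D2:**
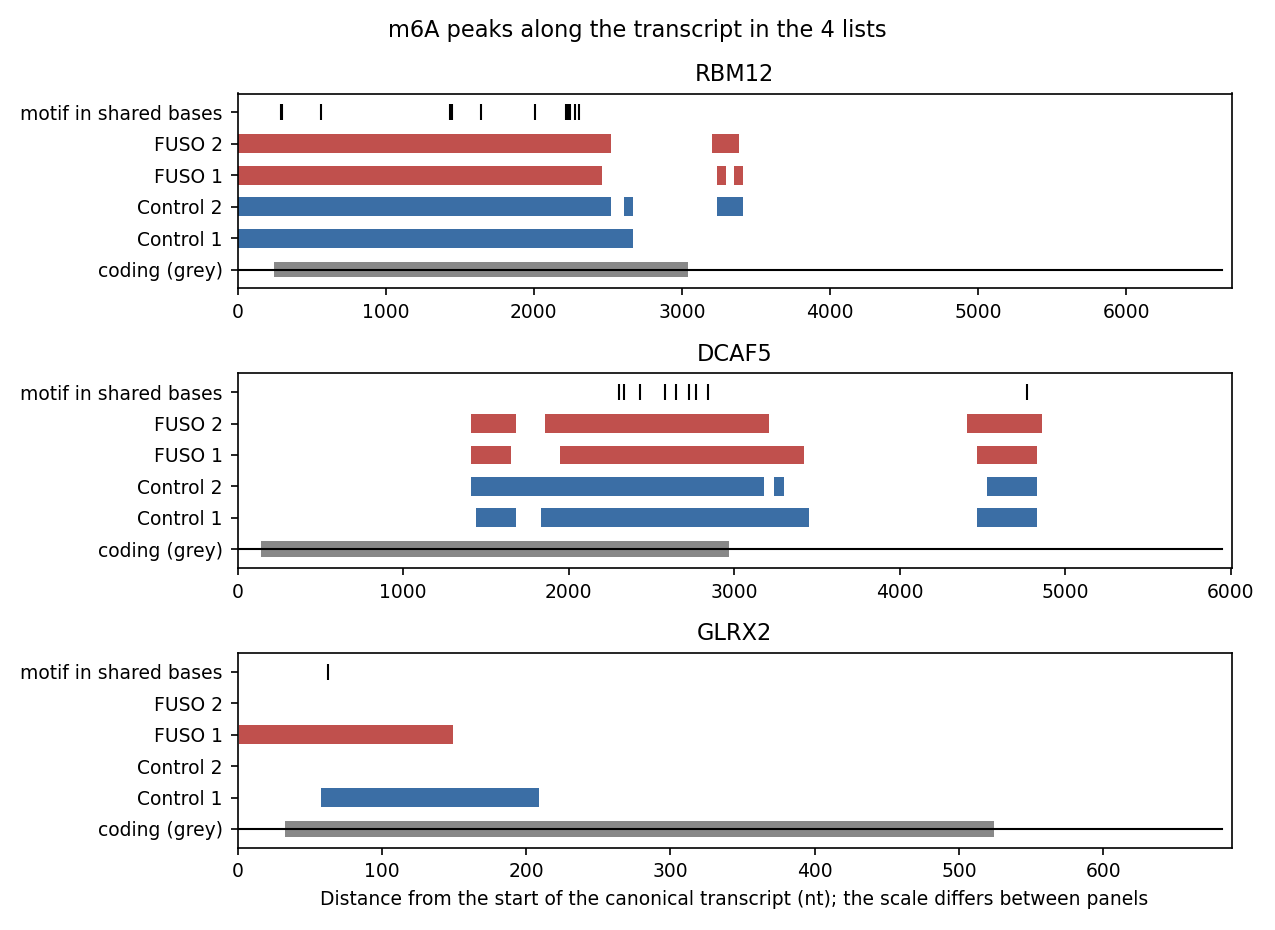
Peaks of each list (blue, Control; red, FUSO) along the canonical transcripts of RBM12, DCAF5 and GLRX2, with distance from the transcript start in nt on the x axis, the coding sequence in grey and GGAC motifs in bases shared by the lists of a region as ticks. RBM12 and DCAF5 keep the same main regions in all 4 lists, and GLRX2 has a peak in Control 1 and FUSO 1 only.

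RBM12 and DCAF5 both had long transcripts and a long exon, which GLRX2 did not, and these features had no part in the choice. Percentiles are among 10673 tested genes with a canonical transcript in GENCODE. The transcripts of RBM12 (6646 nt) and DCAF5 (5946 nt) were at the 86.9th and 82.7th percentile of length, and that of GLRX2 (682 nt) at the 2.07th. The longest exon was 6420 nt in RBM12 and 4731 nt in DCAF5, at the 95.4th and 89.6th percentile, and 290 nt in GLRX2, at the 4.88th. In RBM12 this exon held all 2796 nt of coding sequence, and in DCAF5 it held 1752 of 2826 nt. The 2 genes differed in exon count, 3 in RBM12 and 9 in DCAF5, at the 8.65th and 48.5th percentile. Their transcripts spanned 15976 and 102239 bp of the genome, at the 35.0th and 85.7th percentile.

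The 3′UTR measured 3602 nt in RBM12, 2979 nt in DCAF5 and 158 nt in GLRX2. It held 10, 7 and 1 ATTTA pentamers, the core of AU-rich elements known from unstable mRNAs, searched on the transcript strand only. Per kilobase these were 2.78, 2.35 and 6.33 against a median of 1.63, at the 69.6th, 62.7th and 95.5th percentile. A single pentamer sets the value for GLRX2. GGAC was not dense over the whole transcripts, with 3.16, 4.04 and 2.93 per kilobase against a median of 3.74. GC content was 40.5% in RBM12, 48.3% in DCAF5 and 43.5% in GLRX2, with a median of 49.1% over all.

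Facts of the libraries that bear on these values are few. No read counts were given and the absolute depth was unknown, but relative input depth, from ratios of low FPKM values, was 1.12 for Control 2, 1.24 for FUSO 1 and 0.915 for FUSO 2 with Control 1 set to 1. This order does not follow the groups. Of 10 colorectal epithelial markers 7 were tested, with summed levels of 4799 to 5175 FPKM in Control and 4350 to 4722 FPKM in FUSO libraries, and VIL1, CDX1 and CEACAM5 were at or near 0. Of 10 markers of other cell types 9 stayed under 1 FPKM, the exception being COL1A1 at 4.51 and 3.78 FPKM in Control against 5.72 and 5.05 FPKM in FUSO libraries. CD3E and HBB were at 0, the summed level of these 10 was 3.94 to 4.66 FPKM in Control and 5.50 to 5.91 FPKM in FUSO libraries, and its part in the 3 falls was not tested. Of 7992 genes in the table with a peak in all 4 lists 23 were under 0.1 FPKM in every library, 9 of them at 0, and the cause was not tested.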

How the data were processed

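Per the labels and the methods of the study, reads were trimmed (the submitters' notes name Trim Galore 0.3.3, the methods cutadapt) and aligned to hg19 with HISAT2 2.1.0. The deposited FPKM came from the 4 input libraries by StringTie, which adjusts for length and total only. The deposited peak lists were made per replicate and hold 1 p-value per peak, read here as uncorrected. The methods name MACS2, but exon blocks in the lists are a layout that exomePeak writes, and this was not settled. The labels gave groups and replicate numbers. The methods call the replicates biological but describe no separate cultures, and p-values measure only the spread between these libraries.

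limma 3.58.1 (R 4.3.3) was run on log2(FPKM + 1) by lmFit and eBayes with trend and no covariate, for the 11088 genes averaging 1 FPKM or more, with Benjamini-Hochberg adjustment over all of them. This pseudocount understates changes of low genes such as DCAF5. The count model of the study could not be applied to FPKM. The fit was tested on simulated data. Peaks touching by at least 1 bp on the same strand were merged into regions, with a reciprocal overlap of 50% and peaks at a p-value of at most 1e-05 as alternatives. Annotation and sequence were GENCODE release 44 mapped to GRCh37, and the expression table held 92.0% of the peak names. Peak bases were compared by two-sided exact permutation tests in SciPy 1.17.1. The genes and lists were chosen with earlier results of these data known. Besides the 3 genes, those named were neighbours within 100 kb, the 2 list members with the largest change, and key subunits and paralogues. The 3 nearest profiles, the next lowered genes and CXCL8 were also named. GSR and DTL, tied for size after rounding, were named after their values were seen.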

Additional observations from a re-analysis of the deposited data

How the results depend on the processing

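The falls of RBM12, DCAF5 and GLRX2 kept their sign under every alternative run. The log2 change of DCAF5 was -2.46 with a pseudocount of 0.1 and -1.87 after quantile normalization, against -1.82. Without one library the changes ranged from -1.95 to -1.77 for RBM12, -1.85 to -1.79 for DCAF5 and -1.01 to -0.76 for GLRX2, whose rank from the lowest went from 15 to as far as 43, while RBM12 ranked 1 to 6 and DCAF5 1 to 4 over all alternatives. Without a filter on low values limma called 35 genes higher and 5 lower, against 74 and 15, and 9 were lower without trend. Without one library the calls ranged from 13 to 185 higher and from 3 to 99 lower. A replicate block gave 75 and 15 calls and 0 among neighbours and related lists. With replicate numbers crossed between groups, a block gave 47 calls in either direction. No shared effect of the replicate number was visible, as the correlation of the replicate differences between groups was 0.0243. Whether Control and FUSO libraries of the same number were handled as pairs is not given in the sources used here. Neighbours and lists had 0 calls under each alternative, with a lowest adjusted p of 0.068. With peaks at a p-value of at most 1e-05 the difference in peak bases was -194.5 nt for RBM12 and -194 nt for DCAF5. Without one list it ranged from -135.5 to -13.5 nt for RBM12, from -149 to -59 nt for DCAF5 and from -75.5 to 75.5 nt for GLRX2, and RBM12 had 1 to 2 regions in every remaining list. With 2 libraries a group, the two-sided exact permutation test of peak bases could not give a p below 0.333 for any difference. It therefore could not decide whether m6A differed, by a large or a small amount. The depth was also unknown, and regions without a call had no value.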

Other observations

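The other genes among the 15 with lower mRNA, examined after their values were seen, varied in how their strongest peaks ranked. MYBBP1A, which encodes a nucleolar MYB-binding protein, had its strongest peak within the first 9.46% and 12.1% of the Control lists and the first 29.4% and 38.4% of the FUSO lists. ID1, an inhibitor of helix-loop-helix factors, went from 11.4% and 18.5% to 64.6% and 46.0%. BTBD10 ranked at 47.3% and 50.6% in Control and at 34.5% and 37.1% in FUSO lists. For PHC3, the gene nearest to GLRX2 in profile, the values were 25.6% and 24.9% in Control and 26.8% and 34.7% in FUSO lists. SNX6 and MRPL23 had no peak in any list. Of the 11 of these 15 genes with a peak in all 4 lists, RBM12 and DCAF5 included, 6 had ranks that did not overlap between groups, against 39.5% of the 8493 genes with a peak in all lists. The 6 were MYBBP1A, ID1, PHC3, ARFIP2 (18.7% and 21.3% against 28.1% and 24.3%) and TRIO (3.21% and 3.35% against 4.49% and 9.71%), which ranked weaker in FUSO lists, and BTBD10, which ranked stronger. The ranks of RBM12, DCAF5, ACVR1B, RPL13 and TRA2B overlapped, and none of these differences was tested. The 39.5% counts both directions, and no background for a single direction is given. The 15 genes were called for lower mRNA, and p-values depend on coverage. A shift in m6A thus cannot be told apart here from the lower mRNA level.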
